A study of Homo sapiens with 12 samples.

Results

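The genes described here are 10 members of the NF-kB system, out of 25369 rows in each expression table: the 5 transcription factor subunits NFKB1, NFKB2, REL, RELA and RELB, and 5 genes that restrain or modulate the pathway, NFKBIA, NFKBIE, TNFAIP3, BIRC3 and TRAF1. They were chosen by name, and all 10 were found in both tables and passed the filter on low values in both lines. RNA was sequenced from a pair of lines of human diffuse large B cell lymphoma: TMD8, of the activated B cell-like class, and OCI-Ly7, of the germinal centre B cell-like class. All 12 libraries came from cells that carried an inducible guide RNA against PRMT5, an arginine methyltransferase. Doxycycline at 20 ng/ml was given for 0, 3 or 6 days, with 2 libraries for each day and line, and the cells of day 0 carry the guide too. The sources used here name neither a non-targeting guide nor a clone, so the effects of the guide and of doxycycline cannot be told apart.

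NF-kB proteins act as dimers. In resting cells the dimers of RELA and REL with the product of NFKB1 are held in the cytoplasm by IkB proteins such as those encoded by NFKBIA and NFKBIE. Antigen receptors and Toll-like receptors activate the IKK kinase complex, which marks the IkB proteins for degradation and frees the dimers to enter the nucleus. In the noncanonical arm, the precursor encoded by NFKB2 is processed and pairs with RELB. The dimers switch on their own inhibitors, which makes NFKBIA, NFKBIE and TNFAIP3 both targets of the pathway and brakes on it. Activated B cell-like lymphomas are known for chronic activity of the antigen receptor and MYD88 routes to IKK. RNA levels do not measure the amount of protein, its place in the cell or its activity.

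Promoter sequences are shown because several of these genes are known targets of the factors that they encode or restrain. The windows let a reader see where the letters of a form of the kB site stand. RefSeq start sites of GRCh38.p14 gave windows from 250 bases before to 50 bases after the start for 8 of the 10 genes, all but RELB and NFKBIE. The motif searched on both strands was GGG, then any 2 bases, then TTTCC. Other forms of a kB site were not searched, so bases in lower case may hold them. It was found in 6 of these 8 genes (75.0%), against 635 of 27305 genes in RefSeq (2.33%), and in 7 of 14 windows, against 671 of 35116 (1.91%). Part of each window is given in the direction of the gene, with the matched bases in capitals.
NFKB1, chr4:102501270-102501358, plus strand: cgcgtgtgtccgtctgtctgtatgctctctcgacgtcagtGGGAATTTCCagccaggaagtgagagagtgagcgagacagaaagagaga
NFKB2, chr10:102394460-102394549, plus strand: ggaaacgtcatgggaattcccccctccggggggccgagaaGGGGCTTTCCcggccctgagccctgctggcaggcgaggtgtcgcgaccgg
NFKB2, chr10:102395644-102395704, plus strand, a later start: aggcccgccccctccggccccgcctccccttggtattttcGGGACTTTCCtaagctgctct
REL, chr2:60881488-60881573, plus strand: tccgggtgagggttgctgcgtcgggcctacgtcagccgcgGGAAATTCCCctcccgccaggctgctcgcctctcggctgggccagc
NFKBIA, chr14:35404781-35404870, minus strand: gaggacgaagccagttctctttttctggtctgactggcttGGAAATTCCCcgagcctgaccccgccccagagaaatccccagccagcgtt
TNFAIP3, chr6:137867152-137867241, plus strand: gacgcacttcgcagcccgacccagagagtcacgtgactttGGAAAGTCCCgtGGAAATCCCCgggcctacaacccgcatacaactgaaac
BIRC3, chr11:102317245-102317334, plus strand: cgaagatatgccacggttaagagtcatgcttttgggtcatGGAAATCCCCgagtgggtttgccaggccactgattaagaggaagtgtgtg

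The match of NFKB1 begins 49 bases before its start site, that of REL 46 bases before and that of NFKBIA 81 bases before. In TNFAIP3 a pair of matches stands side by side, beginning 67 and 55 bases before the start. REL and NFKBIA hold the same 10 letters, GGAAATTCCC, and the match of NFKB1 is these letters read on the other strand. The TNFAIP3 match that begins 55 bases before the start and the BIRC3 match also share their letters, GGAAATCCCC. The windows of RELA and TRAF1 hold no match, which says only that these letters are absent from these windows. A match is a description and not a measured binding site.

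The values are FPKM, fragments per kilobase of transcript set against the fragments of the library, which can be compared between genes because they are per length. Below, 3 pairs of values joined by "then" are the 2 libraries of days 0, 3 and 6, in that order. The target gene PRMT5 had 64.8 and 60.5, then 41.3 and 42.0, then 49.6 and 54.7 FPKM in TMD8. In OCI-Ly7 it had 37.9 and 46.9, then 29.3 and 32.1, then 21.0 and 19.2 FPKM. With median-ratio scaling, where a library's values are divided by their typical ratio to the average library of that line, PRMT5 in TMD8 at day 6 was not lower than at day 0 (log2 difference 0.10; limma adjusted p = 0.200). The row of the 45S ribosomal RNA precursor, RNA45S5, moved with the days: it lay at 5222 to 7950 FPKM in TMD8 at day 0 and at 17581 to 20452 later, and in OCI-Ly7 at 10374 to 11163 at day 0 and at 14278 to 20542 later. Over all genes tested, TMD8 had a median log2 change of -0.27 by day 3 and -0.31 by day 6, and OCI-Ly7 had -0.12 and -0.13. The day 6 changes of the 10 genes are therefore given both as deposited and relative to this shift. For single genes of the pathway lists the scaled change is given only for some. B cell identity genes were abundant in both lines, led by CD74. Of 5 germinal centre markers, MME (0 to 0.023 FPKM in TMD8, 6.72 to 10.8 in OCI-Ly7), MYBL1 and BCL6 were wholly higher in OCI-Ly7. LMO2 went against the class of the lines (17.1 to 40.02 and 0 to 0.144 FPKM), as did S1PR2 by its medians (3.45 and 1.96), with overlapping ranges. Of 6 activated B cell markers, IRF4, CCND2 and TNFRSF13B were wholly higher in TMD8. Against the class, IL16 (0.22 to 0.97 and 5.43 to 7.44 FPKM) and FOXP1 (4.09 to 7.05 and 11.8 to 22.1) were wholly higher in OCI-Ly7. PIM1 also went against the class by its medians (29.9 in TMD8 and 58.9 in OCI-Ly7), with overlapping ranges. Summed T and NK cell markers stayed between 0.68 and 1.14 FPKM in TMD8 and between 2.31 and 3.01 in OCI-Ly7, with 6 and 4 of the 9 in the tables at 0 in every library. Of 10 myeloid markers 6 and 7 were at 0 in every library, and their sum ranged from 39.7 to 67.0 FPKM in TMD8, nearly all of it CD68, and from 1.26 to 1.79 in OCI-Ly7. Summed stromal and epithelial markers ranged from 1.02 to 2.06 FPKM in TMD8 and from 11.5 to 13.5 in OCI-Ly7, with 4 of 10 at 0 in each line. The part of these markers and of the ribosomal row in the results was not tested. In cultured lines, less RNA per cell and fewer cells of a kind cannot be told apart.

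Before induction the inhibitor NFKBIA was the most abundant of the 10 transcripts in both lines, and TRAF1 the least. In TMD8 the order of the day 0 levels in FPKM was NFKBIA, NFKB2, NFKB1, NFKBIE, RELA, RELB, REL, TNFAIP3, BIRC3 and TRAF1. In OCI-Ly7 it was NFKBIA, RELB, NFKB2, BIRC3, NFKB1, NFKBIE, RELA, TNFAIP3, REL and TRAF1. Neighbours whose libraries overlapped were TNFAIP3 and BIRC3 in TMD8, and RELB with NFKB2 and NFKB1 with NFKBIE in OCI-Ly7.

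The lines differed most in which subunits they expressed. RELB, the partner of NFKB2, was 1.95-fold higher in OCI-Ly7. The ubiquitin ligase gene BIRC3 was 1.69-fold and NFKBIA 1.45-fold higher there. REL was 2.27-fold higher in TMD8, RELA 1.94-fold and NFKB1 1.81-fold, while NFKBIE, TNFAIP3 and TRAF1 were 1.73-fold, 1.53-fold and 1.26-fold higher. In TMD8 the canonical subunits NFKB1, RELA and REL were thus the higher ones, and only NFKB2, at 39.0 and 34.3 FPKM against 36.6 and 35.2, overlapped between the lines. Of the 10 genes, 3 lay wholly higher and 6 wholly lower in OCI-Ly7, where 42.9% and 44.2% of all genes did, so such a separation was common to most genes. These levels came from tables of separate lines and were compared without a test.

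**Figure D1:**
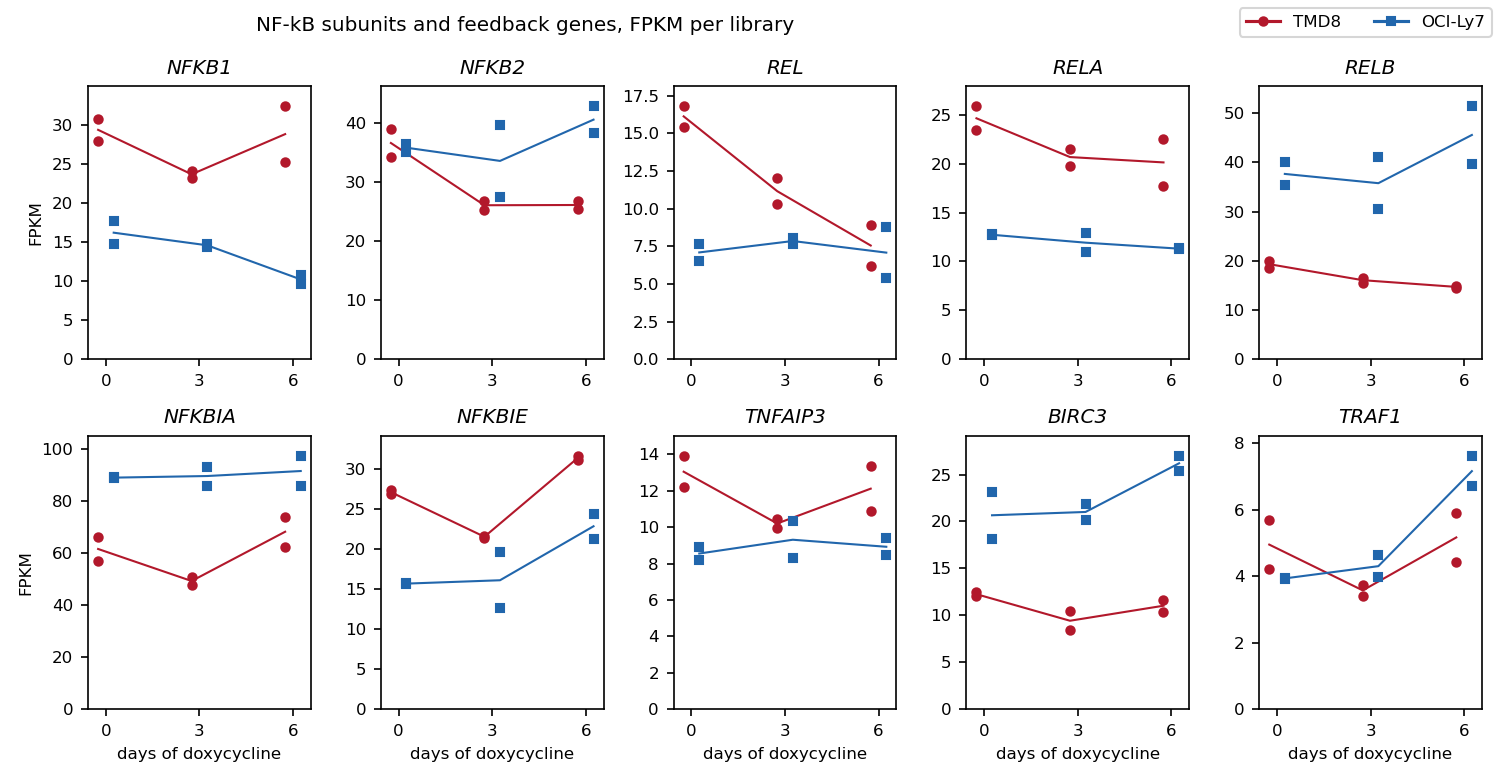
FPKM of the 10 genes (vertical axis, each panel with its own scale from 0) against days of doxycycline (horizontal axis). Each point is 1 library, TMD8 and OCI-Ly7 have separate colours, and the lines join the means of 2 libraries. REL in TMD8 goes down from 16.8 and 15.4 to 6.20 and 8.90, NFKB1 in OCI-Ly7 from 14.7 and 17.7 to 10.8 and 9.61, and TRAF1 in OCI-Ly7 up from 3.95 and 3.92 to 6.71 and 7.62.

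In TMD8 the subunits took separate courses after induction, and REL, which encodes the c-Rel subunit important in activated B cells, went down furthest. REL stood at 16.8 and 15.4, then 12.01 and 10.3, then 6.20 and 8.90 FPKM. Each library of a later day lay below each library of an earlier one. REL fell by 1.02 on the log2(FPKM + 1) scale by day 6 (SE 0.16; adjusted p = 0.00475, limma with Benjamini-Hochberg adjustment over 10456 genes). Relative to the common shift it still fell by 0.69 (SE 0.13; adjusted p = 0.0196, limma).

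NFKB2 and RELB, the pair of the noncanonical arm, also fell in TMD8 on FPKM as deposited, but not beyond the common shift. NFKB2 stood at 39.0 and 34.3, then 25.3 and 26.9, then 25.5 and 26.8 FPKM. RELB stood at 18.6 and 20.0, then 15.5 and 16.6, then 14.6 and 14.8. The libraries of both genes lay below day 0 at days 3 and 6. From day 3 to day 6 NFKB2 overlapped, while RELB lay lower without passing the test (-0.12, limma adjusted p = 0.335). By day 6 NFKB2 fell by 0.47 (SE 0.084; limma adjusted p = 0.00635) and RELB by 0.37 (SE 0.075; limma adjusted p = 0.00927). After median-ratio scaling their changes were -0.12 (limma adjusted p = 0.232) and -0.027 (limma adjusted p = 0.825). Without the second day 0 library, RELB no longer passed (-0.32, limma adjusted p = 0.0559).

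The other canonical subunits, NFKB1 and RELA, did not pass at day 6 in TMD8 on FPKM as deposited. NFKB1, whose product is the DNA-binding partner of RELA and REL, stood at 30.8 and 27.9, then 24.1 and 23.2, then 25.2 and 32.4 FPKM, so that days 0 and 6 overlapped. Its change by day 6 was -0.035 (SE 0.12; limma adjusted p = 0.819), and 0.32 after median-ratio scaling (SE 0.089; limma adjusted p = 0.0480). RELA, the main activating subunit in most cells, stood at 25.9 and 23.4, then 19.8 and 21.5, then 17.7 and 22.5 FPKM. Its day 6 change was -0.29 (limma adjusted p = 0.0905), with 1 library well below the other, and without the second day 6 library it passed at -0.45 (limma adjusted p = 0.0160). After median-ratio scaling the RELA change was 0.061 (limma adjusted p = 0.654).

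Of the IkB genes of TMD8, NFKBIE went another way from REL. NFKBIE, which encodes IkB epsilon, stood at 27.4 and 26.9, then 21.4 and 21.7, then 31.7 and 31.2 FPKM. Both day 6 libraries lay above both of day 0. By day 6 it rose by 0.20 over day 0 (SE 0.060; limma adjusted p = 0.0299) and by 0.52 over day 3 (limma adjusted p = 0.0163), and after median-ratio scaling by 0.56 over day 0 (SE 0.064; limma adjusted p = 0.00698). On FPKM as deposited the rise over day 0 failed the test whichever of the 6 libraries was left out (limma adjusted p = 0.0552 to 0.131). The rise over day 3 failed without the first (0.52, limma adjusted p = 0.0981) or second day 3 library (0.53, limma adjusted p = 0.0901).

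NFKBIA, which encodes IkB alpha, the fast inhibitor that is resynthesised after each pulse of NF-kB, stood in TMD8 at 66.3 and 56.8, then 47.6 and 50.9, then 62.4 and 74.1 FPKM. The libraries of days 0 and 6 overlapped as deposited. The change by day 6 was 0.14 (SE 0.11; limma adjusted p = 0.301) as deposited, and NFKBIA rose by 0.50 relative to the common shift (SE 0.084; limma adjusted p = 0.0141). From day 3 to day 6 the values were 0.46 (limma adjusted p = 0.0601) as deposited and 0.52 (limma adjusted p = 0.0256) after scaling.

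The remaining feedback genes of TMD8 did not pass at day 6 under either scaling. TNFAIP3 encodes A20, a ubiquitin-editing enzyme that shuts the pathway off. It stood at 13.9 and 12.2, then 9.95 and 10.5, then 10.9 and 13.3 FPKM. BIRC3 encodes a ubiquitin ligase that is part of TNF receptor complexes and of the complex that keeps the noncanonical kinase low, and it stood at 12.5 and 12.01, then 10.4 and 8.39, then 10.4 and 11.7 FPKM. TRAF1, an adaptor of TNF receptor signalling, stood at 5.69 and 4.21, then 3.41 and 3.74, then 4.43 and 5.90 FPKM. Their changes by day 6 were -0.10, -0.14 and 0.052 as deposited, and 0.23, 0.19 and 0.35 after median-ratio scaling (limma adjusted p = 0.0886, 0.177 and 0.107).

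At day 3 in TMD8 all 10 genes lay wholly below day 0, as 83.8% of all genes did. NFKB2 (-0.47), REL (-0.50), RELB (-0.25) and NFKBIE (-0.32) passed the test as lower (limma adjusted p = 0.0212, 0.0499, 0.0418 and 0.0214). That is 4 of 10 genes, against 41.5% of all genes, so the members' share was that of the background. After median-ratio scaling 0 of 10 passed in limma (1 at an unadjusted p under 0.05), where 0.144% of all genes passed as higher and 0.0767% as lower. The count as deposited was 0 without either day 0 library or either day 3 library, and 8 without either day 6 library. At day 6 against day 0, 3 of 10 passed as lower and 1 as higher, against 51.7% and 3.89% of all genes. After scaling 1 passed as lower and 3 as higher, against 13.4% and 15.5%. As deposited, the libraries of 5 genes (NFKB2, REL, RELA, RELB and BIRC3) lay wholly below day 0, against 73.4% of all genes, and those of 1 (NFKBIE) wholly above, against 7.88%. The count as deposited at day 6 was 2 without the second day 0 library. From day 3 to day 6, 1 of 10 passed as higher, against 3.38% of all genes, and 2 of 10 after scaling, against 6.59%. The median change of the 10 genes at day 6 was -0.12, against -0.31 over all genes, and 0.21 against 0.0017 after scaling.

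**Figure D2:**
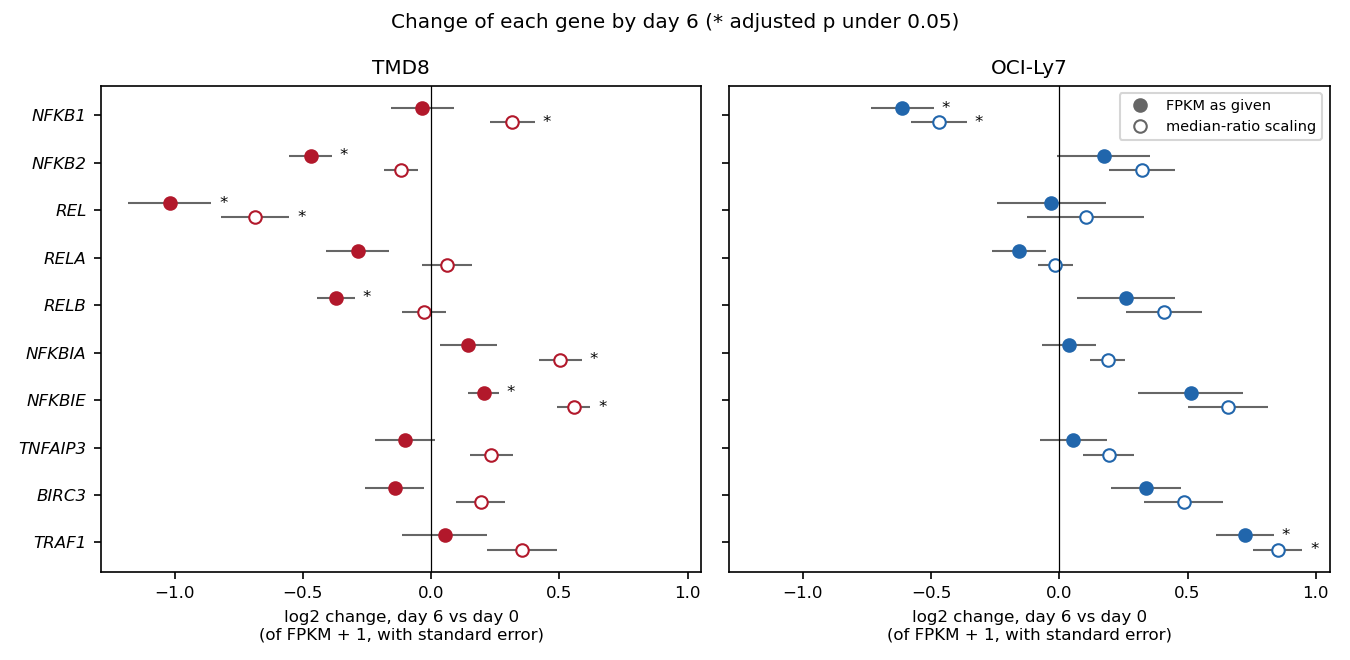
Change from day 0 to day 6 of each of the 10 genes (horizontal axis, difference of log2(FPKM + 1), with bars for 1 standard error) in TMD8 and OCI-Ly7. Filled points are FPKM as deposited, open points are after median-ratio scaling, and a star marks a limma adjusted p under 0.05. In TMD8 REL is at -1.02 and -0.69 and NFKBIE at 0.20 and 0.56, and in OCI-Ly7 NFKB1 is at -0.61 and -0.47 and TRAF1 at 0.72 and 0.85.

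In OCI-Ly7 the subunit that went down was NFKB1. It stood at 14.7 and 17.7, then 14.8 and 14.4, then 10.8 and 9.61 FPKM. Both day 6 libraries lay below the 4 earlier ones. By day 6 it fell by 0.61 (SE 0.12; limma adjusted p = 0.0408, over 11016 genes) and, after median-ratio scaling, by 0.47 (SE 0.11; limma adjusted p = 0.0485). The call sat close to the threshold and failed whichever of the 6 libraries was left out (limma adjusted p = 0.0501 to 0.260).

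REL and RELA did not pass in OCI-Ly7. REL stood at 6.52 and 7.66, then 8.05 and 7.64, then 5.36 and 8.79 FPKM, and its day 6 libraries enclosed all the others. RELA stood at 12.8 and 12.7, then 12.9 and 10.9, then 11.3 and 11.3. The day 6 changes were -0.032 (SE 0.21; limma adjusted p = 0.931) for REL and -0.16 (SE 0.11; limma adjusted p = 0.342) for RELA. After median-ratio scaling they were 0.10 (limma adjusted p = 0.775) and -0.016 (limma adjusted p = 0.887).

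The noncanonical pair did not pass the test in OCI-Ly7. NFKB2 stood at 36.6 and 35.2, then 39.7 and 27.5, then 42.9 and 38.3 FPKM, and RELB at 39.98 and 35.3, then 41.0 and 30.5, then 51.4 and 39.7. NFKB2 spread widest at day 3 and RELB at day 6. At day 6 the changes were 0.17 (SE 0.18; limma adjusted p = 0.531) for NFKB2 and 0.26 (SE 0.19; limma adjusted p = 0.377) for RELB, and 0.32 and 0.41 after median-ratio scaling (limma adjusted p = 0.142 and 0.117).

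Among the feedback genes of OCI-Ly7, TRAF1 moved most. It stood at 3.95 and 3.92, then 4.63 and 3.98, then 6.71 and 7.62 FPKM. Both day 6 libraries lay above the 4 earlier ones. It rose by 0.72 (SE 0.11; limma adjusted p = 0.0345) and, after median-ratio scaling, by 0.85 (SE 0.096; limma adjusted p = 0.0234). The call failed without the first (0.73, limma adjusted p = 0.130) or second day 0 library (0.72, limma adjusted p = 0.247), and without the first (0.80, limma adjusted p = 0.0734) or second day 6 library (0.64, limma adjusted p = 0.139).

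NFKBIE in OCI-Ly7 stood at 15.7 and 15.7, then 19.6 and 12.6, then 24.5 and 21.3 FPKM, with day 6 above all earlier libraries. Its change was 0.51 (SE 0.20; limma adjusted p = 0.143), and 0.66 after median-ratio scaling (SE 0.16; limma adjusted p = 0.0510). Its day 3 pair was the widest of the 3 pairs, and without the first or second day 3 library the change of 0.51 passed (limma adjusted p = 0.0477 and 0.0486). BIRC3 stood at 23.2 and 18.1, then 20.1 and 21.9, then 25.4 and 27.0 FPKM. The BIRC3 change was 0.34 (SE 0.14; limma adjusted p = 0.149), and 0.48 after median-ratio scaling (limma adjusted p = 0.0899). NFKBIA stood at 89.3 and 88.7, then 93.3 and 86.0, then 97.3 and 85.8, and TNFAIP3 at 8.18 and 8.93, then 10.3 and 8.30, then 8.45 and 9.39. As deposited, their day 6 libraries enclosed or overlapped those of day 0, and their changes were 0.037 and 0.055 (limma adjusted p = 0.823 and 0.791). After median-ratio scaling the day 6 libraries of both genes lay above those of day 0. The scaled changes were 0.19 and 0.19 and did not pass (limma adjusted p = 0.118 and 0.232).

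At day 3 in OCI-Ly7, 0 of 10 genes passed in limma, and 0 at an unadjusted p under 0.05; of all genes 0.0726% passed in each direction. At day 6, 1 of 10 passed as lower and 1 as higher, against 9.39% and 1.98% of all genes, and the same counts after scaling, against 8.05% and 6.71%. As deposited, 4 genes (NFKB2, NFKBIE, BIRC3 and TRAF1) lay wholly above day 0, against 20.7% of all genes, and 2 (NFKB1 and RELA) wholly below, against 48.6%. From day 3 to day 6, 0 of 10 passed as deposited (3 at an unadjusted p under 0.05), against 0.218% of all genes. After scaling TRAF1 passed as higher (0.65, limma adjusted p = 0.0361), where 4.29% of all genes did. The median change of the 10 genes at day 6 was 0.11, against -0.13 over all genes, and 0.26 against 0.0056 after scaling.

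The effects of 6 days were then set against each other, as OCI-Ly7 minus TMD8, in a fit over the 12 libraries and 9688 genes. REL fell in TMD8 and changed by -0.032 in OCI-Ly7, a difference of 0.99 (SE 0.29; limma adjusted p = 0.0406). For NFKB1 the difference was -0.58 (SE 0.18; limma adjusted p = 0.0491), and for TRAF1 it was 0.67 (SE 0.21; limma adjusted p = 0.0491). These are 2 of 10 genes higher and 1 lower, against 18.4% and 6.3% of all genes. After median-ratio scaling the difference of NFKB1 passed (-0.79, limma adjusted p = 0.00563; 19% of all genes were lower), and those of REL (0.79, limma adjusted p = 0.0679) and TRAF1 (0.50, limma adjusted p = 0.0614) did not. The differences of NFKB2 (0.64, limma adjusted p = 0.0545) and RELB (0.63, limma adjusted p = 0.0629) lay just outside the threshold. As deposited, the count of 3 ranged from 0 to 4 over the 12 fits that left out 1 library. The difference of REL failed in 8 of those fits, that of TRAF1 in 8 and that of NFKB1 in 10. For the effects of 3 days, 0 of 10 differences passed in limma (1 at an unadjusted p under 0.05), against 0.103% of all genes.

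Ratios of genes within a library do not depend on the scaling between libraries, and they were computed after the values had been seen. The summed FPKM of the 5 feedback genes divided by that of the 5 subunits was 0.960 and 0.926, then 0.959 and 0.966, then 1.34 and 1.29 in TMD8. In OCI-Ly7 it was 1.27 and 1.25, then 1.27 and 1.46, then 1.33 and 1.40. TMD8 thus began below OCI-Ly7 and at day 6 lay in the range of its libraries. NFKBIA gave the largest part of this step. Relative to the summed subunits it went from 0.506 and 0.469 to 0.699 and 0.702 in TMD8, and from 0.808 and 0.818 to 0.799 and 0.796 in OCI-Ly7.

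**Figure D3:**
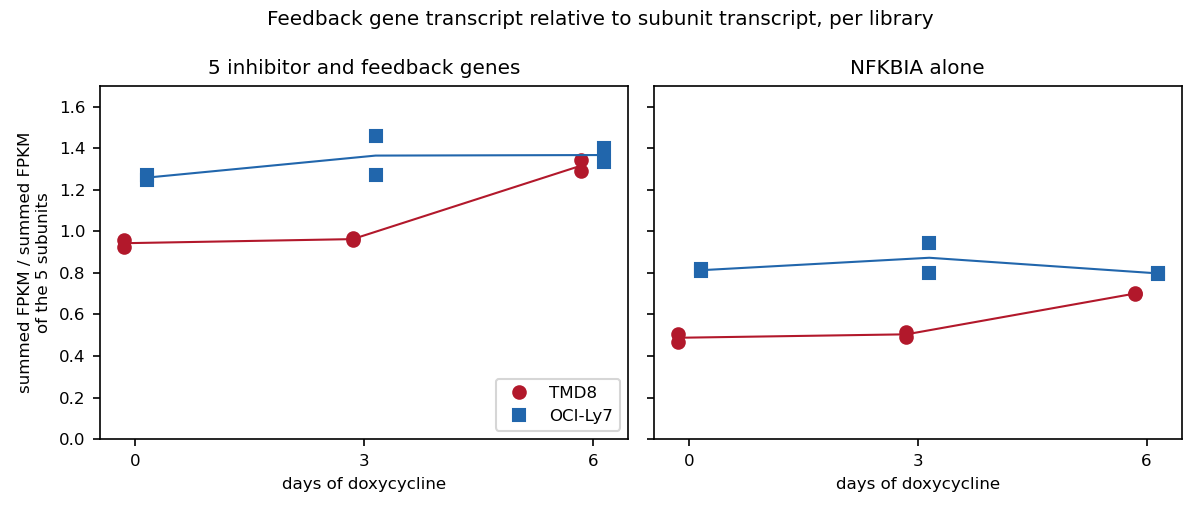
Summed FPKM of the 5 feedback genes, and of NFKBIA alone, divided by the summed FPKM of the 5 subunits (vertical axis, from 0) against days of doxycycline, with 1 point per library. The TMD8 ratio of the summed feedback genes is at 0.926 to 0.966 at days 0 and 3 and at 1.29 and 1.34 at day 6, and the OCI-Ly7 libraries lie between 1.25 and 1.46 throughout.

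The mix of subunits shifted as well. REL made up 12.8% and 12.7% of the summed subunit FPKM in TMD8 at day 0 and 6.95% and 8.44% at day 6, while NFKB1 went from 23.5% and 23.0% to 28.3% and 30.7%. RELA stayed between 19.3% and 21.9% in all 6 TMD8 libraries. These shares are descriptions and were not tested.

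Upstream of the subunits, the lists of pathway genes are read against all genes at day 6. In TMD8, 51.7% of all genes fell and 3.89% rose as deposited, and 13.4% fell and 15.5% rose after scaling. In OCI-Ly7, 9.39% fell and 1.98% rose as deposited, and 8.05% and 6.71% after scaling. Of the genes that carry antigen receptor signals to IKK, 8 of 11 fell and 0 rose in TMD8 (51.7% and 3.89% of all genes), with a median change of -0.38 against -0.31 over all genes; after scaling 3 fell and 2 rose. PLCG2, the phospholipase behind the receptor, went from 43.9 and 41.0 to 19.8 and 22.2 FPKM (-0.98, limma adjusted p = 0.00156; -0.63 after scaling, limma adjusted p = 0.00340). The kinase SYK fell by 0.78 (limma adjusted p = 0.00334) and CASP8 by 0.61 (limma adjusted p = 0.00290). In OCI-Ly7, 3 of 11 fell (9.39% of all genes), with a median of -0.22 against -0.13 over all genes. CSNK1A1, the kinase casein kinase 1 alpha, went from 24.1 and 25.4 to 3.80 and 4.06 FPKM (-2.38, limma adjusted p = 0.00147), with the kinase BTK (-0.62) and CASP8 (-0.61) also lower (limma adjusted p = 0.0408 and 0.0345).

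The Toll-like receptor and MYD88 genes showed 7 of 12 lower and 0 higher in TMD8 (median -0.34 against -0.31 over all genes), and 1 of 11 lower in OCI-Ly7 (median -0.14 against -0.13). These shares are near the 51.7% and 9.39% of all genes. IRAK1, a kinase recruited by MYD88, fell by 0.84 in TMD8 (limma adjusted p = 0.00198), TLR9 by 0.76 (limma adjusted p = 0.00198) and TAB1 by 0.60 (limma adjusted p = 0.00373); TLR4 fell by 0.52 in OCI-Ly7 (limma adjusted p = 0.0486). After scaling 4 of 12 were lower and 2 higher in TMD8, and 0 lower and 1 higher in OCI-Ly7. Of the IKK and linear ubiquitin genes 10 of 13 fell in TMD8 (median -0.36; 51.7% of all genes fell) and 1 after scaling, where 1 rose (13.4% and 15.5% of all genes). IKBKG, the regulatory subunit of IKK, went from 3.49 and 3.60 to 1.02 and 1.40 FPKM (-1.05, limma adjusted p = 0.00300; -0.80 after scaling, limma adjusted p = 0.0127). In OCI-Ly7, where the list's median was -0.058, 2 of 13 fell, the kinase gene CHUK (-0.56, limma adjusted p = 0.0367) and UBE2N (-0.52, limma adjusted p = 0.0395), both also after scaling, where 1 other rose.

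In the noncanonical arm and TNF receptors 5 of 10 genes fell and 1 rose in TMD8 (median -0.23), where 51.7% and 3.89% of all genes did, and after scaling 3 fell and 4 rose (13.4% and 15.5%). TNFRSF13C, the BAFF receptor, went from 4.79 and 4.45 to 1.20 and 1.57 FPKM (-1.24, limma adjusted p = 0.00167). TNFRSF1B fell by 0.88 (limma adjusted p = 0.00159) and TRAF3, which keeps the noncanonical kinase low, by 0.70 (limma adjusted p = 0.00219). CD40, a receptor that activates both arms, went from 38.7 and 37.6 to 42.8 and 49.0 FPKM (0.26, limma adjusted p = 0.0366). In OCI-Ly7, 0 of 9 passed (median 0.073), and 2 rose after scaling. The other IkB proteins were mixed in TMD8. NFKBIZ, a nuclear IkB, fell by 0.81 (limma adjusted p = 0.00300), with -0.45 after scaling (limma adjusted p = 0.0126). BCL3 fell by 0.39 (limma adjusted p = 0.00621), with -0.037 after scaling (limma adjusted p = 0.760). The remaining 2 of the 4 tested, NFKBIB and NFKBID, did not pass as deposited (0.034 and -0.096, limma adjusted p = 0.746 and 0.557). After scaling NFKBIB rose, as NFKBIE did (0.38, limma adjusted p = 0.0110), and NFKBID did not pass (0.25, limma adjusted p = 0.124). In OCI-Ly7, 0 of 4 passed. The medians of these 4 were -0.24 and 0.14. Of the other deubiquitinases and brakes 8 of 13 fell in TMD8, near the 51.7% of all genes, and 0 of 11 passed in OCI-Ly7 (9.39% of all genes fell), with medians of -0.38 and -0.21. The A20 partners TNIP3 (-0.53), TAX1BP1 (-0.53) and TNIP1 (-0.50) were among those that fell (limma adjusted p = 0.00732, 0.00278 and 0.00264), and after scaling 0 of 13 fell and 1 rose.

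Genes outside the 10 that NF-kB is known to switch on moved in both directions. In TMD8 at day 6, 6 of 28 rose and 10 fell (3.89% and 51.7% of all genes), with a median change of -0.078 against -0.31 over all genes. After scaling 14 rose and 3 fell (15.5% and 13.4% of all genes), with a median of 0.26. The chemokine gene CCL4 went from 16.9 and 15.1 to 51.1 and 56.8 FPKM (1.69, limma adjusted p = 0.00100). CCL22 rose by 1.47 (limma adjusted p = 0.00219) and LTA, which encodes lymphotoxin alpha, by 1.31 (limma adjusted p = 0.0136). MYC fell by 0.85 (limma adjusted p = 0.00383) and IRF4 by 0.70 (limma adjusted p = 0.00426), both also after scaling (-0.49 and -0.34; limma adjusted p = 0.0193 and 0.0315). In OCI-Ly7, 4 of 20 rose and 1 fell (1.98% and 9.39% of all genes), with a median of 0.22, and 7 rose and 1 fell after scaling (6.71% and 8.05%). EBI3, a cytokine subunit, went from 7.52 and 8.64 to 19.9 and 15.5 FPKM (1.04, limma adjusted p = 0.0345), GADD45B rose by 0.71 (limma adjusted p = 0.0345) and CCL22 by 0.69 (limma adjusted p = 0.0412), while MYC fell by 0.70 (limma adjusted p = 0.0345).

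**Figure D4:**
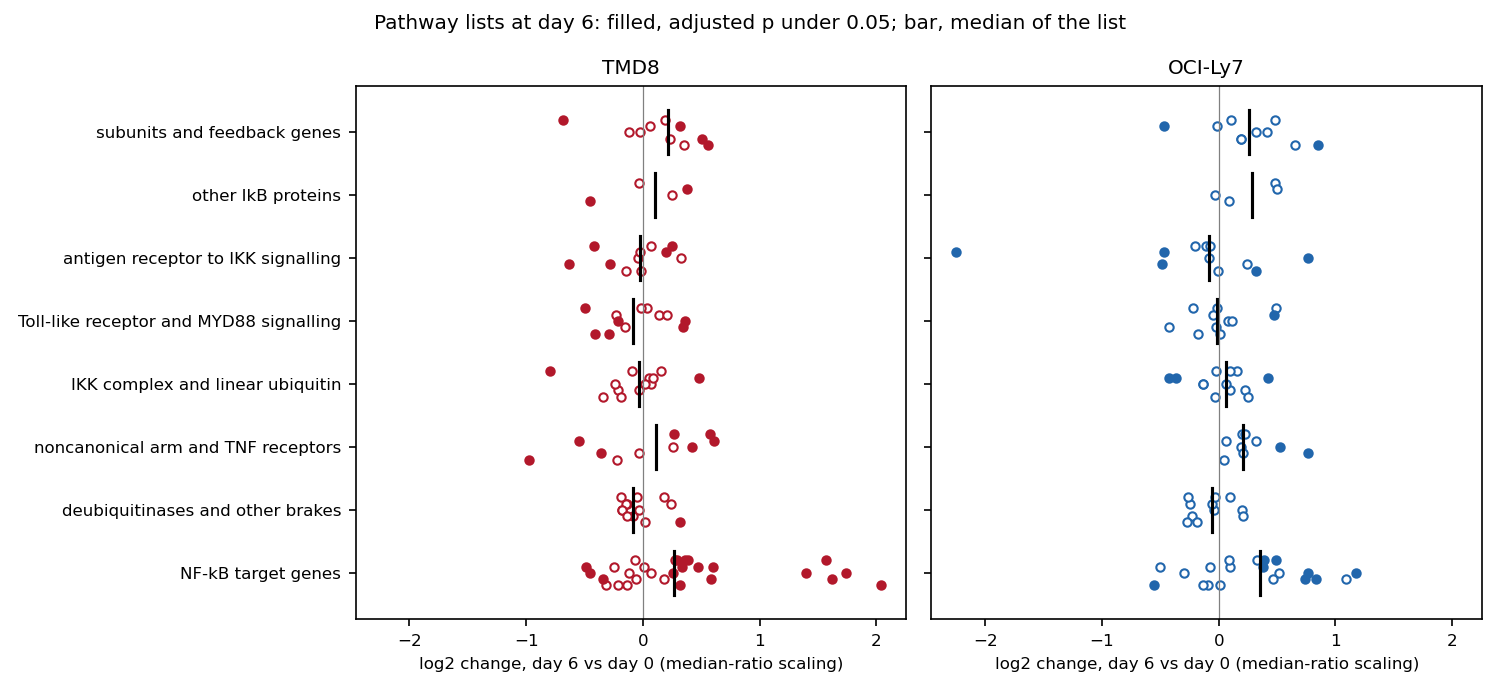
Change from day 0 to day 6 after median-ratio scaling (horizontal axis, difference of log2(FPKM + 1)) for the tested genes of each pathway list (rows) in TMD8 and OCI-Ly7. Each point is 1 gene, filled where the limma adjusted p is under 0.05, and the black bar is the median of the list: the NF-kB target genes have medians of 0.26 in TMD8 and 0.35 in OCI-Ly7, and the points farthest from 0 are CSNK1A1 in OCI-Ly7 (-2.25) and CCL4 in TMD8 (2.04).

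The genes whose course was most like that of a member were found with Pearson's r over the 12 libraries, on scaled values centred within each line. The points share the libraries, so these are descriptions. REL was most like VPS13D (0.95) and PUM2 (0.94), NFKB1 most like FASTKD3 (0.97) and GID8 (0.97), and NFKB2 most like PDXK (0.96) and POLL (0.94). NFKBIE was most like TRAF2 (0.96), which encodes an adaptor that recruits BIRC3, and NUDT1 (0.95). NFKBIA was most like BCS1L (0.96) and PLEK (0.96), and TRAF1 most like NUP62 (0.96) and PIF1 (0.96). For RELB the highest value was 0.96 (NKD2), for BIRC3 0.92 (TFG), for TNFAIP3 0.90 (SIRPA) and for RELA 0.88 (ZNF592).

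Where promoter letters and courses are set side by side, the 6 genes with a kB match did not share a course. In TMD8 at day 6 REL and NFKB2 fell as deposited, and after median-ratio scaling REL fell while NFKB1 and NFKBIA rose. TNFAIP3 and BIRC3, with a match, passed in neither line, and TRAF1, with no match in its windows, rose in OCI-Ly7.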

How the data were processed

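RNA sequencing libraries from RNA taken with RNeasy Plus were made with an Illumina TruSeq RNA kit, per the labels' protocols. Reads were aligned with HISAT and assembled with StringTie on hg19, per the submitters' processing notes; versions were not given in the sources used here. FPKM values were deposited by the authors, in 1 table per line with 2 libraries for each day. The labels' treatment protocol names other days than the titles, characteristics and design text, which name days 0, 3 and 6 and were followed. FPKM keeps no absolute depth, so the depth is unknown; summed FPKM ran from 397477 to 467844 per library and 10092 to 11021 genes reached 1 FPKM.

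Days were compared within each line with limma 3.58.1 (R 4.3.3) on log2(FPKM + 1). Genes whose 6 libraries of the line averaged 1 FPKM or more were tested. The fit had 3 residual degrees of freedom, a mean-dependent trend and Benjamini-Hochberg adjustment with a threshold of 0.05. Fold changes on this scale understate those of low genes. The difference between lines used genes that pass in both. Nothing in the labels says that the 2 libraries came from separate cultures, so p-values measure only the spread between them, which may be technical. The procedure was tested on simulated data. Alternatives were median-ratio scaling, an equal sum per library, a pseudocount of 0.1, a minimum mean of 5 FPKM or none, no trend, a replicate block and leaving out each library in turn.

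The 10 genes and the pathway lists were chosen with earlier results of these data known. In each list, line and direction, up to 3 genes past the threshold with libraries that do not overlap were named, the largest changes first. In GENCODE v29, exons of REL overlap those of AC010733.2 on the same strand by up to 5702 bases. RELA overlaps AP001362.2 on the opposite strand by 9 bases. Reads shared with these genes could not be separated. Promoters were taken from RefSeq on GRCh38.p14, and no coordinate was moved between builds. Some genes of the lists are not reported here.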

Additional observations from a re-analysis of the deposited data

Results flagged for a closer look

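The change from day 0 to day 6 differed between the lines for 3 of the 10 genes by a test of the difference itself, OCI-Ly7 minus TMD8 (limma on log2(FPKM + 1)). The difference was 0.99 for REL (adjusted p = 0.0406), which fell in TMD8 and was spread around its day 0 level in OCI-Ly7. It was -0.58 for NFKB1 (adjusted p = 0.0491), which fell in OCI-Ly7. It was 0.67 for TRAF1 (adjusted p = 0.0491), which rose in OCI-Ly7. After median-ratio scaling, NFKB1 passed at -0.79 (limma adjusted p = 0.00563), and REL and TRAF1 did not. With an equal sum per library, and with a replicate block, NFKB1 and TRAF1 did not pass, while NFKB2 and RELB did.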

How the results depend on the processing

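With 2 libraries per group and 3 residual degrees of freedom a line, most calls lay near the threshold. On FPKM as deposited, the TMD8 day 6 change of REL was -1.25 to -0.79 over the 6 fits that left out 1 library. That of NFKB2 was -0.56 to -0.38. With all libraries and median-ratio scaling, the fall of REL still passed (-0.69, limma adjusted p = 0.0196). That of NFKB2 did not (-0.12, limma adjusted p = 0.232). Without 1 library in turn, where the lone sample is assumed to vary like the other groups, the members passing ranged from 0 to 8 (TMD8 day 3), 2 to 4 (TMD8 day 6), 0 to 2 (TMD8 day 6 against day 3), 0 to 0 (OCI-Ly7 day 3), 0 to 2 (OCI-Ly7 day 6), 0 to 0 (OCI-Ly7 day 6 against day 3), and 0 to 0 and 0 to 4 for the differences between lines at days 3 and 6. After median-ratio scaling the members passing were 0 at day 3 in TMD8, 2 from day 3 to day 6 in TMD8, 1 from day 3 to day 6 in OCI-Ly7 and 1 for the day 6 difference. An equal sum left 0 at day 3 in TMD8. For the day 6 difference it kept the count of 3 with other genes. NFKB2 (0.66, limma adjusted p = 0.0373) and RELB (0.65, limma adjusted p = 0.0350) passed. NFKB1 (-0.56, limma adjusted p = 0.0518) and TRAF1 (0.69, limma adjusted p = 0.0538) did not. No filter gave 2 at day 3 in TMD8, 0 at day 6 in OCI-Ly7 and 0 for the day 6 difference. A mean of at least 5 gave 2 from day 3 to day 6 in TMD8 and 1 for the day 6 difference. The cause was not tested.

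Replicate numbers are shared across days, but nothing says that they pair cultures, and deviations of same-numbered libraries correlated by -0.10, -0.15 and 0.080 in TMD8 and 0.13, -0.080 and 0.11 in OCI-Ly7 (days 0 and 3, 0 and 6, 3 and 6). With the replicate block the members passing in TMD8 were 0 at day 3, 3 at day 6 and 0 from day 3 to day 6. In OCI-Ly7 at day 6 the count was 1. For the day 6 difference 3 passed, all as higher, but not the same 3 as without the block. NFKB2 (0.64, limma adjusted p = 0.0435) and RELB (0.63, limma adjusted p = 0.0179) passed. NFKB1 (-0.58, limma adjusted p = 0.0826) and TRAF1 (0.67, limma adjusted p = 0.0866) did not.

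Signs turned for small changes. Median-ratio scaling turned RELA to 0.051 and RELB to 0.037 at day 3 in TMD8, NFKB1 to 0.32, RELA to 0.061, TNFAIP3 to 0.23 and BIRC3 to 0.19 at day 6, and RELA to 0.011 from day 3 to day 6. In OCI-Ly7 it turned NFKB2 to 0.013, RELA to 0.028 and RELB to 0.042 at day 3 and REL to 0.10 at day 6. It turned the differences between lines of NFKB1 to -0.011 and RELA to -0.022 at day 3, and of RELA to -0.077 and TNFAIP3 to -0.042 at day 6. An equal sum turned NFKB1 to 0.044 (TMD8 day 6), NFKB2 to -0.11 (TMD8 day 6 against day 3), NFKB2 to 0.016, RELA to 0.031 and RELB to 0.045 (OCI-Ly7 day 3), REL to 0.060 (OCI-Ly7 day 6) and the day 0 difference of NFKB2 between lines to 0.00042.

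Leaving out 1 library turned signs within these ranges. In TMD8 at day 6 they were -0.21 to 0.14 for NFKB1, -0.24 to 0.033 for TNFAIP3 and -0.13 to 0.23 for TRAF1, and from day 3 to day 6 -0.038 to 0.043 for NFKB2 and -0.21 to 0.12 for RELA. In OCI-Ly7 at day 3 they were -0.37 to 0.14 for NFKB2, -0.20 to 0.018 for RELA, -0.29 to 0.12 for RELB, -0.050 to 0.067 for NFKBIA, -0.29 to 0.30 for NFKBIE, -0.037 to 0.25 for TNFAIP3 and -0.14 to 0.20 for BIRC3. In OCI-Ly7 at day 6 they were -0.34 to 0.28 for REL, -0.052 to 0.13 for NFKBIA and -0.014 to 0.12 for TNFAIP3, and from day 3 to day 6 -0.48 to 0.15 for REL, -0.18 to 0.044 for RELA, -0.061 to 0.12 for NFKBIA and -0.19 to 0.091 for TNFAIP3. For the differences between lines they were -0.039 to 0.37 for RELB at day 3, and -0.035 to 0.29 for RELA and -0.23 to 0.015 for NFKBIA at day 6.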
